A study of Drosophila melanogaster with 2 samples.

Results

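Peaks of the oestrogen-related receptor (ERR) at single-gene promoters made up 1148 of the 2892 peaks in the optimal set, or 39.7% (95% Wilson interval 37.9 to 41.5). A peak was counted here when its summit lay within 500 bp of annotated transcript starts of exactly 1 protein-coding gene. Of the remaining peaks, 562 had starts of 2 or more genes within that distance and are called shared-promoter peaks. The other 1182 had none and are called peaks away from starts. Position alone chose these classes, so neither signal nor sequence entered the choice.

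The chromatin came from whole Drosophila melanogaster embryos of both sexes, 0 to 24 h old. They belonged to a transgenic line that stably makes ERR with green fluorescent protein (GFP) at its C-terminus, and the precipitation used an antibody against GFP. There was 1 group, in which all embryos carried the tagged receptor, with biological replicates that the labels number 2 and 3. The deposited notes name a control alignment behind the peak calls, and no untagged or input library is compared here. Whole embryos of all stages were combined, so binding in different cell types or at different hours cannot be told apart.

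ERR is a nuclear receptor that binds an extended half-site in DNA, and in the fly embryo it is known for raising the transcription of glycolytic and other carbohydrate genes. Fly genes lie close together and neighbouring genes often share a divergent promoter, so a peak near the starts of a single gene leaves the least doubt about which promoter it covers. Promoters of widely expressed fly genes are known to carry elements of the factors DREF, M1BP and BEAF-32, and elements of GAGA factor (GAF) are known from regulated promoters with paused polymerase.

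The ERR sites found at summits of these peaks are shown first, since they are the sequence that the tagged receptor is known to bind. The extended site searched was TNAAGGTCA, on both strands, from 100 bp before to 100 bp after each summit, and 18 of the 1148 windows held it. The 8 carriers with the highest signal outside 1 chromosome arm that is not printed here are given 5′ to 3′ on the strand of the gene, from the Release 6 genome (dm6). Capitals mark the site (its reverse complement where it lies on the other strand), and stretches within 5′ UTRs were limited to 30 bases.
Glys (chr3R:15146935-15146964, minus strand): acgccgccacTGACCTTTAtttgactttta
Hex-A (chrX:9585746-9585775, plus strand): ttttcagttttTGACCTTCAaggttccttc
Eno (chr2L:1727295-1727324, minus strand): actttgggtcTGACCTTTAaaagtagctta
UGP (chr3L:9358315-9358383, minus strand): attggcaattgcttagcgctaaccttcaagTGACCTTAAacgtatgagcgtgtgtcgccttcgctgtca
GstO2 (chr3L:8523346-8523414, minus strand): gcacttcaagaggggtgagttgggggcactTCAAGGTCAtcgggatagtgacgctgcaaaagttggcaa
ND-20 (chrX:15986931-15986999, minus strand): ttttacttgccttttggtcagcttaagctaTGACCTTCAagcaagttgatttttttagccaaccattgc
Mtp (chr2L:20922434-20922502, minus strand): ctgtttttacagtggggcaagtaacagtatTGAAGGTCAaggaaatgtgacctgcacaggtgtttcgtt
Sod1 (chr3L:11113474-11113542, minus strand): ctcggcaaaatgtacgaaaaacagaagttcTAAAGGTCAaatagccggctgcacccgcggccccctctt

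These genes encode glycogen synthase (Glys), hexokinase (Hex-A), enolase (Eno), UDP-glucose pyrophosphorylase (UGP), an omega-class glutathione transferase (GstO2), a subunit of respiratory complex I (ND-20), a microsomal triglyceride transfer protein (Mtp) and a superoxide dismutase (Sod1). At UGP the middle of the site lay 1 bp from the summit, at Glys 5 bp and at Hex-A 6 bp. The greatest distance among the 8 was 61 bp, at ND-20. Over all 18 carriers the median distance was 15.5 bp, and 13 sites lay within 50 bp of the summit.

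The strongest peaks mostly lacked the extended site, and some held only its core. The core AAGGTCA alone, in capitals, lay in the windows of the following peaks at Pgk (phosphoglycerate kinase), Glyp (glycogen phosphorylase), Tpi (triose phosphate isomerase) and a second promoter of Ald1 (aldolase).
Pgk (chr2L:2748489-2748518, minus strand): caccgacaaaaTGACCTTgcgctgacattg
Glyp (chr2L:2130336-2130402, plus strand): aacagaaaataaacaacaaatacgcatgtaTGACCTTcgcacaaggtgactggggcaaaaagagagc
Tpi (chr3R:30134274-30134303, minus strand): gaagacttacgAAGGTCAaaagaaggttag
Ald1 (chr3R:26259211-26259259, minus strand): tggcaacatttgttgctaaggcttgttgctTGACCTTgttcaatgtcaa

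No exact core lay in the windows of several other peaks of high signal. Stretches at the summits of Pgm1 (phosphoglucomutase), Ugalt (a UDP-galactose transporter) and CG14100 are shown with no capitals, as examples of such windows. The missing match says only that these letters are not in the window.
Pgm1 (chr3L:16128711-16128811, minus strand): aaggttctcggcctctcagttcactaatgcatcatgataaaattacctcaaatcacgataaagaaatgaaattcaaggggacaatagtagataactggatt
Ugalt (chrX:2703852-2703932, minus strand): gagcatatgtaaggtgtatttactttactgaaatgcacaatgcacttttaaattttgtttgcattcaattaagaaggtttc
CG14100 (chr3L:19590570-19590670, minus strand): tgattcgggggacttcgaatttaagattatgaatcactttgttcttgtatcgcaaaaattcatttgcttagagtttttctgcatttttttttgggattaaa

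Elements of promoter factors were also found, each with its site in capitals. Those shown are DREF elements (TATCGATA) at the kinase gene Abl, the ribosomal protein gene RpS29 and the elongation factor gene eEF1gamma.
Abl (chr3L:16647906-16647973, minus strand): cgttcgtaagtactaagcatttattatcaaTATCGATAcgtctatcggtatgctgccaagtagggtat
RpS29 (chr3R:9778046-9778075, plus strand): atcgtggaaaaTATCGATActgccaccccc
eEF1gamma (chr3R:29220101-29220168, plus strand): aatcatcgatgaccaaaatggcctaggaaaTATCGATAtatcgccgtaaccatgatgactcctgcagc
M1BP elements (GGTCACACT) are shown at CG7766 and at beta-PheRS, which encodes a subunit of phenylalanyl-tRNA synthetase.
CG7766 (chrX:9103720-9103769, minus strand): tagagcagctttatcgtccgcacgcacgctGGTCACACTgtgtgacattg
beta-PheRS (chr3R:24252695-24252763, minus strand): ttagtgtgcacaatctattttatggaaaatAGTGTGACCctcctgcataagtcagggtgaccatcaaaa
GAF elements (GAGAGAG) are shown at Glyp, where the element lay in the same window as the ERR core, and at Hex-A, where it lay with the extended site.
Glyp (chr2L:2130379-2130445, plus strand): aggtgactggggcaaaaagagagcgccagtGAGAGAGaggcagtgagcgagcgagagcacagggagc
Hex-A (chrX:9585773-9585802, plus strand): ttcacggcgagcGAGAGAGagagagagtga

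Genes of sugar breakdown and storage held 7 of the 9 highest peaks at single-gene promoters and 10 of the 20 highest. Signal is the peak caller's own value for a region, on a scale that is not shared between lists, and pooled signal is that of the list called on both replicates together. Pgk had a pooled signal of 2675, with 1501 in replicate 2 and 1182 in replicate 3. Ald1 had 2559, with 1385 and 1177, and Glyp had 1706, with 964 and 760.0. All of these were higher in replicate 2, and the order of the genes was the same in both replicates.

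Pgm1, whose enzyme links glycogen to glycolysis, had a pooled signal of 1630, with 893 in replicate 2 and 743 in replicate 3. Ugalt had 1239 (688 and 558), and CG14100 had 1125 (674 and 454). Tpi had 1096 (625 and 479), the glyceraldehyde phosphate dehydrogenase gene Gapdh2 had 1052 (570.0 and 482), and the phosphofructokinase gene Pfk had 1046 (549 and 502). The 20 highest peaks of the class ended with a second Ald1 promoter at 720.4, Glys at 712 and Hex-A at 660.3. Replicate signals for Glys were 358 and 359 and for Hex-A 332 and 329.

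The other 8 of the 20 highest were px (pooled signal 888), the Polycomb group gene ph-p (847), PNPase, which encodes polynucleotide phosphorylase (819), CG1888 (807) and larp, which encodes a La-related RNA-binding protein (776). Naprt, encoding nicotinate phosphoribosyltransferase, had 768, PhKgamma, encoding the catalytic subunit of phosphorylase kinase, had 745, and the mitochondrial ribosomal protein gene mRpL41 had 743. Naprt was the only one of these 8 with a lower signal in replicate 2 (375) than in replicate 3 (398).

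**Figure D1:**
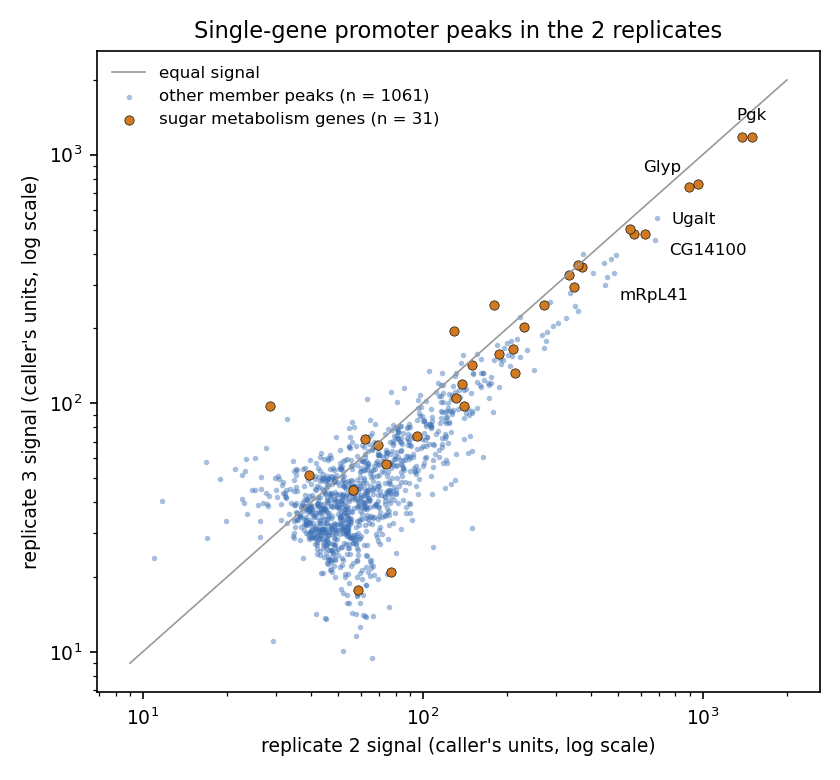
Signal of the 1092 single-gene promoter peaks paired in both lists, in replicate 2 (horizontal) and replicate 3 (vertical), both in the caller's units on log scales, with a line of equal signal. The 31 peaks at genes of glycolysis and of glycogen, trehalose and pentose phosphate metabolism are in orange; 898 of the 1092 points lie on the replicate 2 side of the line, and the low ones scatter most.

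The pooled signal of single-gene promoter peaks had about the same median as that of the other classes, and the highest optimal peak, at 3946, lay at a shared promoter. Single-gene signal ran from 69.2 to 2675, with a median of 96.9 and quartiles of 79.2 and 138, and 28 exceeded 500. The median was 102 for shared-promoter peaks, 96.8 for peaks away from starts and 97.8 for the optimal set. Single-gene peaks were 14 of the 20 highest optimal peaks, 29 of the 50 highest and 50 of the 100 highest. Their share was 44.1% in the highest of 10 equal groups of optimal peaks by signal and 42.2% in the lowest.

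Of the single-gene peaks, 560 (48.8%) lay above the optimal median, against 305 (54.3%) of shared-promoter peaks and 581 (49.2%) of peaks away from starts. By Fisher's exact test, two-sided, the odds ratio against shared-promoter peaks was 0.802 with p = 0.0348, which became 0.0696 when adjusted over the 2 comparisons and so did not pass. In the highest 2892 regions of replicate 2 alone the ratio was 0.801 (p = 0.0304), and in those of replicate 3 alone 0.939 (p = 0.559), by the same Fisher's exact test. With a distance of 200 bp instead of 500 bp it was 0.527 (unadjusted exact p = 2.2e-06), and with 1000 bp 0.979 (unadjusted exact p = 0.818). Against peaks away from starts it was 0.985, with an exact p = 0.868. Peaks are not biological replicates, and p-values over them do not measure how embryos or replicates vary.

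The 2 replicates both ranked most, but not all, of these peaks highly. Of the optimal peaks, 70.0% overlapped one of the 2892 highest regions of each replicate list, and for single-gene peaks it was 788, or 68.6% (95% Wilson interval 65.9 to 71.3). Shared-promoter peaks reached 71.4% and peaks away from starts 70.6%. Neither difference passed Fisher's exact test, two-sided (odds ratios 0.879 and 0.913, adjusted p = 0.322 for both). Replicate 2 alone recovered 1011 of the single-gene peaks (88.1%) and replicate 3 alone 902 (78.6%). Since pooled signal decides which regions enter the optimal set, part of this recovery is built in.

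Recovery followed signal within the class, which is largely built in, since pooled signal was close to the sum of both replicate signals. Above the median signal of the 1148 peaks, 561 of 574 (97.7%) were among the highest regions of both replicates, and below it 227 of 574 (39.5%). All of the 100 highest were. The pooled signal was close to the sum of both replicate signals, with a median ratio of 0.997 (quartiles 0.981 and 1.01) over the 1092 peaks whose summits paired within 100 bp in both lists.

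Signals were higher in replicate 2 for 898 of the 1092 paired peaks (82.2%). The ratio of replicate 2 to replicate 3 had a median of 1.33 and quartiles of 1.08 and 1.67, and library depth is unknown. Beyond a factor of 2 lay 148 peaks (13.6%), of which 136 were higher in replicate 2 and 12 in replicate 3. Spearman's rho between the replicates was 0.610 over the 1092 peaks and 0.861 over the 100 highest, as a description of peaks that share both libraries. It was 0.695 among the 574 peaks of higher signal but -0.454 among the 574 of lower signal. Pooled signal was close to the sum of both replicate signals, so a narrow range of it builds in a negative rho. The value of -0.454 therefore does not measure how far the replicates disagree. Summits moved little between lists, by a median of 8 bp in replicate 2 and 12 bp in replicate 3.

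The 3 largest replicate ratios in each direction were at peaks with pooled signals from 75.8 to 88.5. Epg5, an autophagy gene, had 66.1 in replicate 2 and 9.47 in replicate 3, the syndecan gene Sdc had 51.9 and 10.1, and CG11357 had 76.0 and 15.2. In the other direction, mtd had 11.7 in replicate 2 and 40.5 in replicate 3, and the engulfment adaptor gene ced-6 had 16.9 and 58.0. A second summit in the Pfk region had 28.6 and 97.2. Among stronger peaks, the highest Drat summit (pooled signal 235) had 150.5 in replicate 2 and 31.6 in replicate 3. CG32115, with a pooled signal of 195, had no region in the list of replicate 2 and a signal of 83.3 in replicate 3. At Drat and CG32115 the replicate signals fall short of the pooled signal, so whether they belong to the same summit is unknown. The kinase gene Lk6 (81.9) and VhaM9.7-c (73.6) had no region in the list of replicate 3.

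Summits lay mostly upstream of the start. Relative to the nearest start of the gene, 794 summits (69.2%) were upstream, 351 (30.6%, 28.0 to 33.3) downstream and 3 at the start itself. The downstream share was 31.3% in the highest regions of replicate 2 alone and 33.4% in those of replicate 3 alone. The median position was 57 bp upstream, with quartiles at 171 bp upstream and 20.2 bp downstream, and 567 summits (49.4%) lay within 100 bp of the start.

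Position was also set beside signal. Above the median signal of the class, 25.4% of summits were downstream and 40.9% within 100 bp, and below it 35.7% and 57.8%. Of the 100 highest peaks 22 lay within 100 bp and 29 downstream, with a median position of 142 bp upstream. Of the 207 summits in the first 100 bp downstream, 31.4% exceeded the optimal median, against 44.1% of the 358 in the first 100 bp upstream. Farther out the share was 63.0% of the 135 summits 200 to 300 bp upstream and 15 of the 25 at 200 to 300 bp downstream, so peaks of higher signal were a larger share away from the start on both sides. Examples of distant summits at strong peaks were Glyp at 469 bp upstream, ph-p at 476 bp upstream and Pfk at 270 bp downstream. No test was made of these splits.

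**Figure D2:**
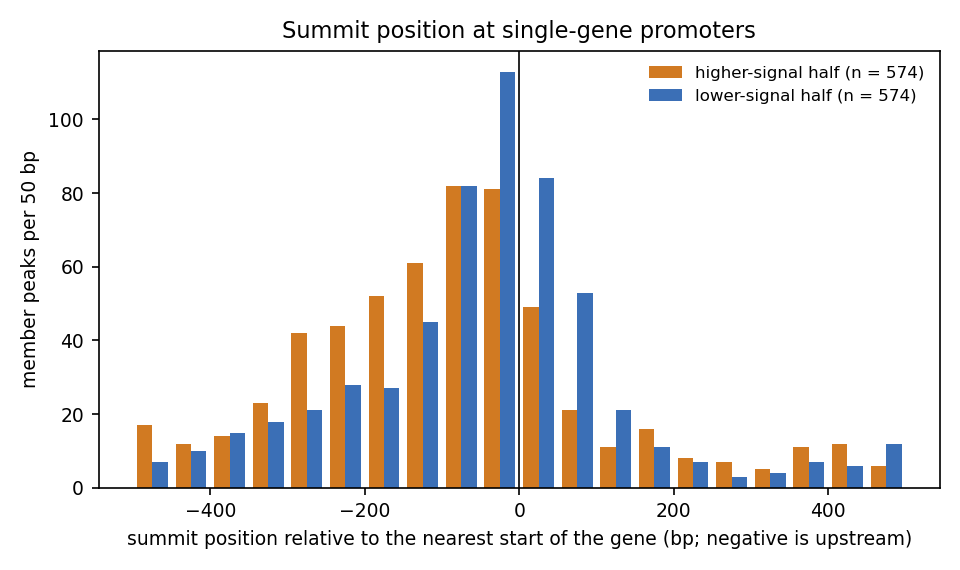
Number of single-gene promoter peaks in bins of 50 bp by the position of the summit relative to the nearest start of the gene, with negative positions upstream, for the 574 peaks of higher signal (orange) and the 574 of lower signal (blue). The lower-signal peaks crowd at the start and just downstream, and the higher-signal peaks extend farther upstream.

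By annotation, 460 summits (40.1%) were intergenic, 320 (27.9%) in a 5′ UTR and 308 (26.8%) in an intron. Coding sequence held 17 and 3′ UTRs 11. Intronic summits were the strongest of the larger classes, with a median signal of 107 against 98.8 for intergenic and 89.5 for 5′ UTR summits. At shared promoters 10.7% of summits were intronic and 61.0% intergenic. Median GC content of the windows around summits was 42.8% at single-gene promoters and 38.8% in each of the other classes.

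The limit of 500 bp cut through a continuous range. Just inside it lay CG9743 at 500 bp (pooled signal 373), kuk at 499 bp (122) and a Ldh summit at 497 bp (334). Just outside lay the summits nearest CG17896 at 501 bp (472), CG3348 at 504 bp (90.5) and lola at 505 bp (158). Among the 1148 peaks, 198 (17.2%) had a start of a second protein-coding gene 501 to 1000 bp from the summit, and 82 (7.14%) had a start of a non-coding gene within 500 bp. The second gene lay a median of 2646 bp away, and 320 peaks (27.9%) had none within 5000 bp.

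The 1148 peaks belonged to 1037 genes, or 7.69% of the 13493 eligible protein-coding genes, which are those with at least 1 base that could have held such a summit. The highest peak of each gene had a median signal of 98.5. Gene lists were set beside these values without a test, because they were chosen with results of these data known. Of 14 glycolysis genes, 11 (78.6%, 52.4 to 92.4) had a single-gene promoter peak, with a median signal of 660.3, and all 11 exceeded the optimal median. Pgk, Ald1 and Tpi were highest, and Pgi, which encodes glucose phosphate isomerase, had 636, with 347 in replicate 2 and 294 in replicate 3. Of the 3 others, 1 had a shared-promoter peak only.

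Glycogen, trehalose and pentose phosphate genes had such a peak at 10 of 15 (66.7%, 41.7 to 84.8), with a median signal of 317. Glyp, Pgm1 and Glys were highest, and all 10 exceeded the optimal median. Of 13 genes of nucleotide sugars and glycosylation, 7 (53.8%) had one, with Ugalt highest and a median signal of 83.3. The next were the galactokinase gene Galk at 123 (79.3 in replicate 2 and 46.1 in replicate 3) and mmy at 98.3 (56.0 and 48.5). Of the 7, 3 exceeded the optimal median.

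The insulin, TOR and hypoxia list had 8 of 18 genes (44.4%) and a median of 90.0. Its highest were SNF4Agamma, the gamma subunit of AMP-activated kinase, at 143 (81.9 in replicate 2 and 61.0 in replicate 3), Thor, the eIF4E-binding protein, at 139 (97.0 and 49.7), and alc at 134 (85.3 and 40.9). Transcription factors of sugar response and growth had 5 of 16 (31.2%), led by Atf3 at 449.8 (276 and 178), cbt at 434 (223 and 222) and REPTOR at 225 (134 and 94.5). Their median of 225 was above that of all member genes.

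Nuclear receptor genes had 6 of 21 (28.6%) and a median of 90.4. ERR itself led with 203 (117 in replicate 2 and 92.0 in replicate 3), at a summit 256 bp upstream of a start. Its copy number in the transgenic line was not examined. Eip75B, an ecdysone-induced receptor gene, had 177. The overlapping regions with the nearest summits had 32.8 in replicate 2 and 86.3 in replicate 3. Together these fall short of the pooled signal, so whether they belong to the same summit is unknown. The receptor gene svp had 102 (61.8 and 38.1).

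Lists of mitochondrial and lipid genes differed in their shares. The TCA cycle and pyruvate entry list had 7 of 22 (31.8%) with a median of 89.9, led by the malate dehydrogenase gene Mdh1 at 214 (123 in replicate 2 and 95.8 in replicate 3). Fatty acid oxidation and lipid storage had 7 of 17 (41.2%), led by Lpin at 158 (88.5 and 80.4), with a median of 96.6. Oxidative phosphorylation had 4 of 82 (4.88%, 1.91 to 11.9), near the 7.69% of all eligible genes, and 12 more genes had a shared-promoter peak only. Mitochondrial ribosomal proteins had 2 of 68 (2.94%, 0.810 to 10.1), with 18 more at shared promoters.

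Protein synthesis genes differed between lists. Cytosolic ribosomal protein genes had a single-gene peak at 23 of 89 (25.8%, 17.9 to 35.8), with a median signal of 103, and 25 more had a shared-promoter peak only. RpL23A was highest at 280.1 (172 in replicate 2 and 105 in replicate 3), then RpS29 at 174 (110.5 and 62.4) and RpL11 at 155 (92.6 and 60.6). Initiation and elongation factor genes had 10 of 51 (19.6%), led by eIF6 at 493 (293 and 205). No peak of the class lay at 30 aminoacyl-tRNA synthetase genes, 16 ribosome biogenesis genes or 48 proteasome genes, with upper 95% bounds of 11.4%, 19.4% and 7.41%. The 7.69% of all eligible genes lies below the first 2 bounds and just above the last. The synthetase list was built from a symbol pattern that leaves out beta-PheRS, which had a single-gene peak of 148. Shared promoters held peaks of 7 of the synthetase genes, 4 of the biogenesis genes and 10 of the proteasome genes.

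Lists of chromatin, patterning, signalling and other cell functions had shares from 6.06% to 22.7%. Polycomb and trithorax genes had 5 of 27 (18.5%), with ph-p far above Kdm2 at 139.6 and Su(z)2 at 98.8. Insulator and promoter factors had 3 of 18 (16.7%), led by the GAF gene Trl at 165, and cell cycle genes 4 of 27 (14.8%), led by Dp at 131. Signalling genes had 7 of 32 (21.9%), led by the ligand gene spi at 232, and actin and adhesion genes 5 of 22, led by Vinc at 146. Segmentation and Hox genes had 3 of 30, and the highest of them, bcd, stood at 78.1. Vacuolar ATPase genes had 2 of 33 (6.06%).

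Among tissue lists, muscle genes had 4 of 21, led by Msp300 at 279 and sls at 224. Neuron and glia genes had 4 of 20, led by moody at 358 and elav at 232, and germ line genes 3 of 10, led by bgcn at 125. Midgut genes had 1 of 10, fkh at 231, trachea and epidermis genes 1 of 11, bnl at 91.1, and fat body and blood genes 0 of 15, with an upper 95% bound of 20.4%. The 95% intervals of these lists and of the muscle list held the 7.69% of all eligible genes. With whole embryos, a lower signal in fewer cells and in more cells with less binding cannot be told apart.

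**Figure D3:**
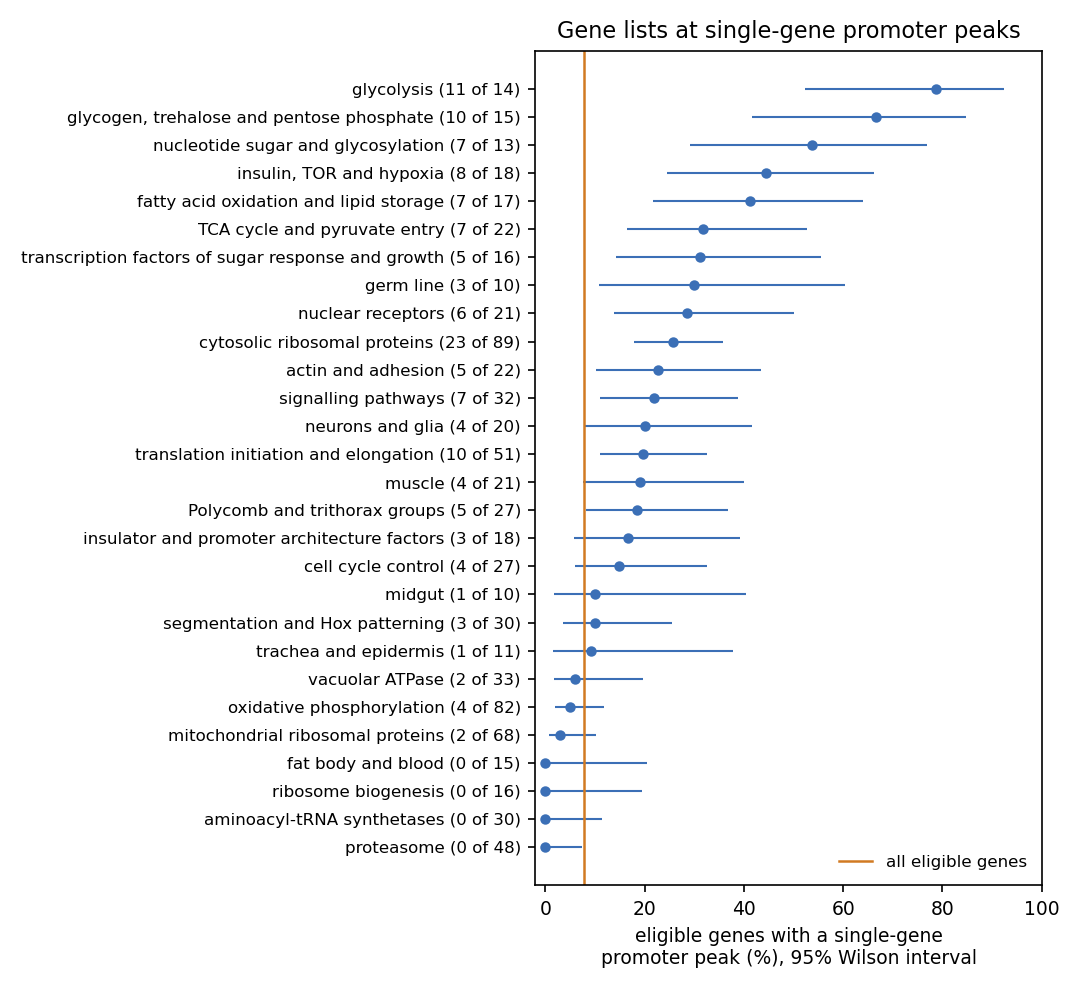
Share of eligible genes with a single-gene promoter peak (horizontal, in percent) for each of 28 gene lists, with 95% Wilson intervals and the counts beside each name; the orange line marks the 7.69% of all eligible genes. Glycolysis at 78.6% and glycogen, trehalose and pentose phosphate genes at 66.7% lie farthest to the right, and 4 lists lie at 0.

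Many genes with single-gene peaks had several separate promoters. Starts more than 500 bp apart were annotated at 439 of the 1037 genes (42.3%) and at 1636 of the other 12456 eligible genes (13.1%). The rule counts summits near these same starts, and more starts offer more places to qualify, so the shares are given with no test. The count was also made per cluster of starts. A single-gene peak lay at 598 of 11418 clusters (5.24%, 4.84 to 5.66) of genes with 1 cluster and at 521 of 5012 clusters (10.4%, 9.58 to 11.3) of genes with several. Member genes were also longer, with a median of 5689 bp against 2034 bp, and the part of length in these shares was not tested.

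Binding was not limited to the first promoter of a gene. Among the 439 genes with several clusters, 180 had peaks at the 5′-most cluster only, 212 at others only and 47 at both, and 69 had 2 or more clusters bound. A peak lay at 227 of 1889 5′-most clusters and at 9.41% of the other clusters. The reticulon gene Rtnl1 (2L) had 6 peaks over 5 of its 7 clusters, with signals from 73.6 to 435. The highest of them had 270.3 in replicate 2 and 167 in replicate 3.

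At 90 genes 2 or more peaks were found, 54 of them across separate clusters. Ptpmeg2 (X), encoding a tyrosine phosphatase, had 4 peaks at 4 of 6 clusters, with signals of 304, 294, 148 and 107. CG46385 had 4, all at or below 106. Pgk had, beside its main peak of 2675, peaks of 137 and 74.0 at 2 other clusters. The lactate dehydrogenase gene Ldh had 334, 152 and 90.5, and Eno had 516, 428 and 331, the last 2 as summits of the same region.

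The other genes with 3 peaks were CAP, Drat, Pfrx, SNF4Agamma, dnc, larp, milt, mtd, nebu and ph-p. At dnc, which encodes a cyclic AMP phosphodiesterase, the middle of the 3 promoters was highest at 371 (222 in replicate 2 and 153 in replicate 3), with 148 and 94.9 at the others. At larp the peak of 776 stood beside 81.0 and 71.5, and at nebu 387 beside 147 and 72.2. Further optimal peaks away from starts lay inside 205 of the 1037 genes (19.8%), with 321 such peaks in all, or 27.2% of the 1182 peaks away from starts. The share of other eligible genes with such a peak is not given here. Those genes were also shorter, with a median of 2034 bp against 5689 bp. In 109 of the 205 genes the inner peak was the higher. More inner peaks give more chances of this, and 28 of the 205 genes had 3 or more. Eip75B and simj had most, with 7 each.

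Sequence at the summits differed between single-gene and shared promoters. By the rule, shared-promoter summits had starts of 2 or more genes within 500 bp and single-gene summits starts of 1. A higher share of elements known from promoters at shared promoters can partly follow from that rule. The search covered 15 motifs on both strands. In the windows of single-gene peaks the GAF element lay in 117 (10.2%) and in those of shared-promoter peaks in 8 (1.42%), an odds ratio of 7.86 (adjusted exact p = 5.2e-12). That ratio was 4.74 in replicate 2 alone, 3.79 in replicate 3 alone and 3.08 with a distance of 1000 bp, past the threshold in each. DREF showed the opposite, with 76 (6.62%) against 80 (14.2%), an odds ratio of 0.427 (adjusted exact p = 3.3e-06). These and the following motif comparisons used Fisher's exact test, two-sided, with Benjamini-Hochberg adjustment over the 15 motifs.

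The BEAF-32 core CGATA, which overlaps DREF, lay in 37.4% of single-gene and 51.1% of shared windows (odds ratio 0.572, adjusted exact p = 7.2e-07). The TATA box TATAAA lay in 19.3% and 27.4% (0.635, adjusted exact p = 7.1e-04), a call that was lost with limits of 200 or 1000 bp, in the higher-signal 50% of peaks and with narrower or wider windows. The ERR core lay in 46 windows (4.01%) against 7 (1.25%), and the odds ratio of 3.31 passed (adjusted exact p = 0.00466). In replicate 2 alone that ratio was 2.12 and did not pass (adjusted exact p = 0.104). It was 3.93 in replicate 3 alone and passed. The extended ERR site, which contains the core, lay in 18 (1.57%) and 2 (0.356%), and the odds ratio of 4.46 missed the threshold (adjusted exact p = 0.0751). It passed in replicate 3 alone, with 19 windows against 0 (adjusted exact p = 0.00217), and did not in replicate 2 alone (1.92, adjusted exact p = 0.551). M1BP did not pass either (4.09% and 5.87%, 0.684, adjusted exact p = 0.242).

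Against peaks away from starts, the promoter elements DREF, M1BP and BEAF-32 passed the test and exact matches to the ERR and GAF elements did not. Those peaks were chosen to have no protein-coding start within 500 bp. A lower share of elements known from promoters there partly follows from that rule. DREF lay in 6.62% against 0.338% (odds ratio 20.9, adjusted exact p = 3.2e-18), M1BP in 4.09% against 0.169% (25.2, adjusted exact p = 4.1e-12) and the BEAF-32 core in 37.4% against 23.7% (1.92, adjusted exact p = 4.1e-12). The M1BP ratio was 10.2 in replicate 2 alone and 10.1 in replicate 3 alone. The DREF ratio was 7.88 among the higher-signal 50% of peaks, and all of these passed. The ERR core lay in 4.01% against 4.82% (0.824, adjusted exact p = 0.548), and GAF in 10.2% against 7.28% (1.45, adjusted exact p = 0.0569). The extended ERR site lay in 1.57% against 2.28% (0.681, adjusted exact p = 0.384). Its lower share passed in replicate 2 alone (0.458, adjusted exact p = 0.0381) and not in replicate 3 alone (0.623, adjusted exact p = 0.235). With at most 1 mismatch among its fixed letters, a setting added after seeing the data, the extended ERR site lay in 14.2% of single-gene, 9.96% of shared and 18.4% of distant windows.

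The remaining motifs searched numbered 8, and none of them passed in either class comparison as searched here. The E-box was searched as CACGTG. It contains the hypoxia response core, searched as ACGTG. The Sp and KLF family was searched as GGGCGTG. For the ETS family the letters were CCGGAAG. The element of NRF1 was taken as GCGCATGC. The CREB element was taken as TGACGTCA. For the early factor Zelda the letters were CAGGTAG. The GATA family was searched as AGATAA. This last motif came nearest, with an odds ratio of 0.738 against peaks away from starts, of which 13.1% held it (adjusted exact p = 0.0596). In replicate 2 alone it passed (0.725, adjusted exact p = 0.0381). The hypoxia response core lay in 18.8% of single-gene windows and 16.2% of those away from starts (adjusted exact p = 0.244). It passed in replicate 2 alone (1.35, adjusted exact p = 0.0223) and in replicate 3 alone (1.31, adjusted exact p = 0.0426). Within the higher-signal 50% of peaks it also passed (1.58, adjusted exact p = 0.0194).

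For comparison, windows of the same length were taken at the canonical starts of 13492 eligible genes, centred 57 bp upstream. Of these 1.30% held the ERR core and 0.348% the extended site, against 4.01% and 1.57% of single-gene summit windows. GAF lay in 4.86%, DREF in 7.81%, M1BP in 5.24%, the BEAF-32 core in 38.6% and the TATA box in 32.9%. The ERR and GAF elements thus had higher shares at single-gene summits than at starts in general. DREF, M1BP, the BEAF-32 core and the TATA box had lower shares at these summits than at starts. The start windows all had the same position, while summits lay up to 500 bp from a start, 49.4% of them within 100 bp. Lower shares of elements that lie near starts can thus partly follow from the unlike placement. No test was made of these differences. A match is a description of the letters in a window and not evidence of binding by that factor.

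**Figure D4:**
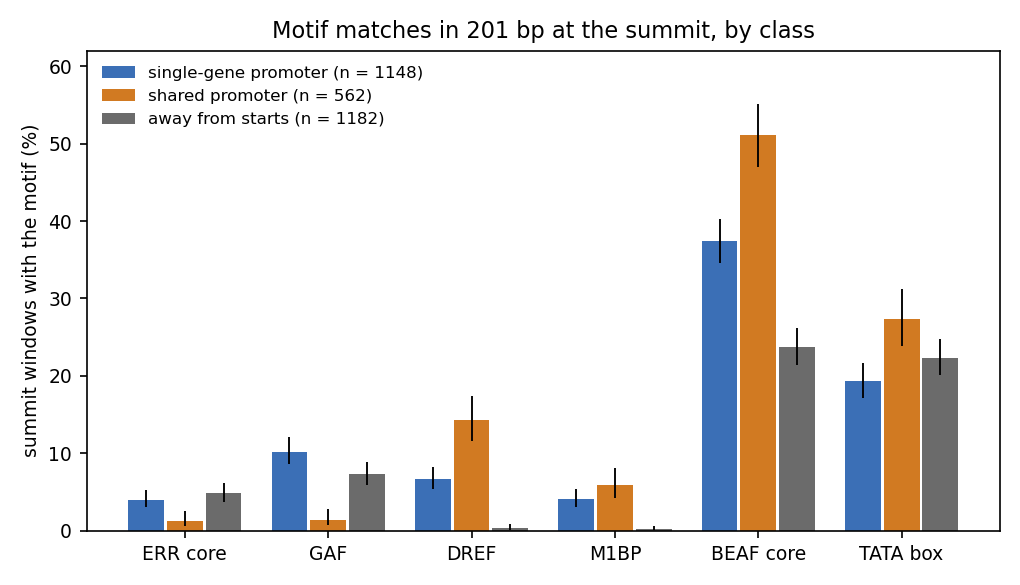
Share of windows reaching 100 bp to each side of the summit with an exact match (vertical, in percent) for 6 motifs in single-gene promoter peaks (blue), shared-promoter peaks (orange) and peaks away from starts (grey), with 95% Wilson intervals. GAF stands at 10.2% against 1.42% of shared promoters, DREF at 6.62% against 14.2%, and DREF and M1BP are near 0 away from starts.

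Within the class, the ERR core was more frequent at high signal and DREF at low signal, but the calls depended on the setting. The core lay in 14.0% of the 100 highest peaks and in 4.58%, 3.44%, 1.91% and 2.29% of the successive groups of 262. DREF lay in none of the 100 highest, then in 5.34%, 5.34%, 11.1% and 7.25%. Split at the median signal, DREF lay in 4.18% of higher and 9.06% of lower peaks (odds ratio 0.438, adjusted exact p = 0.0183). The call was lost in each replicate alone (0.621, adjusted exact p = 0.111, in replicate 2 and 0.613, adjusted exact p = 0.292, in replicate 3). It was also lost with a distance of 200 bp, in the higher-signal 50% of peaks and with narrower or wider windows, and kept with 1000 bp. The ERR core lay in 5.57% and 2.44% (2.36) and did not pass (adjusted exact p = 0.0734), although in replicate 2 alone it did (3.71, adjusted exact p = 0.00317). In replicate 3 alone it did not (1.94, adjusted exact p = 0.199).

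Among the 100 highest, the 14 peaks with the core included Pgk, Glyp, Tpi, Pfk, the second Ald1 promoter, Glys, Hex-A and 2 Eno summits. High peaks with DREF were Ufc1 at 220.3, Alg3 at 215 and CG1827 at 209, then Abl at 204. With M1BP the highest were CG7766 at 312, deltaCOP, which encodes a coatomer subunit, at 155, beta-PheRS at 148, Glo1 at 139 and CG10068 at 138. With GAF they were Glyp, Hex-A, CG9743 at 373, CG11857 at 293 and TRAM at 291. GAF was found at similar shares over the whole range, from 7.00% of the 100 highest to 11.8% of the lowest group.

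**Figure D5:**
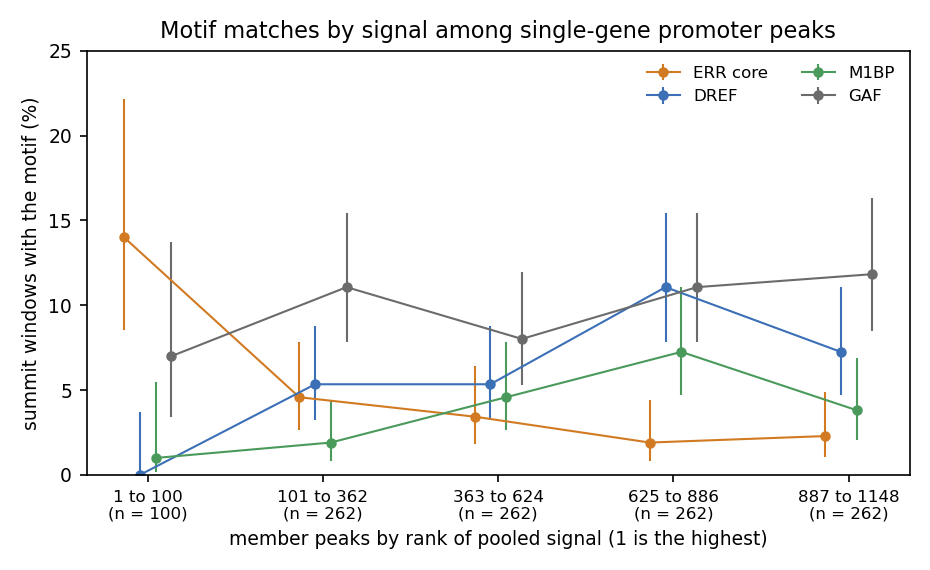
Share of windows reaching 100 bp to each side of the summit with an exact match (vertical, in percent, with 95% Wilson intervals) among single-gene promoter peaks grouped by rank of pooled signal (horizontal), for the ERR core, DREF, M1BP and GAF. The ERR core falls from 14.0% in the 100 highest to 2.29% in the lowest group, and DREF is at 0 in the 100 highest.

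Shares of elements in the windows also differed by the side of the start on which the summit lay. Windows reached 100 bp to each side of the summit, so the side partly decides which stretch around the start was searched. For elements that lie near starts, a difference between sides is thus partly built in. The TATA box lay in 22.7% of windows with a summit upstream of or at the start and in 11.7% of those downstream (odds ratio 2.22, adjusted exact p = 1.1e-04), the BEAF-32 core in 41.0% and 29.1% (1.70, adjusted exact p = 9.0e-04) and DREF in 7.90% and 3.70% (2.23, adjusted exact p = 0.0473). The BEAF-32 call was lost in replicate 3 alone (1.34, adjusted exact p = 0.102), and the DREF call in replicate 2 alone (1.81, adjusted exact p = 0.0901). Both were lost in the higher-signal 50% of peaks and with wider windows, DREF also with narrower ones, and the TATA box with wider ones. By the same Fisher's exact test, the ERR core lay in 3.01% and 6.27% (0.464) and missed the threshold (adjusted exact p = 0.0508). It passed in each replicate alone (0.378, adjusted exact p = 0.0226, in replicate 2 and 0.391, adjusted exact p = 0.0126, in replicate 3). It also passed with 1000 bp, in the higher-signal 50% of peaks and with wider windows, and did not with 200 bp or narrower windows. Of the peaks with DREF, 81.6% had their summit within 100 bp of the start.

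ERR sites were found on both sides of the start. Summits were downstream in 55.6% of peaks with the extended site and 47.8% with the core, against 30.6% of all 1148. By Fisher's exact test the extended site did not pass between sides (odds ratio 0.346, adjusted exact p = 0.105). It passed with 1000 bp (0.232, adjusted exact p = 0.0109) and in the higher-signal 50% of peaks (0.177, adjusted exact p = 0.00997). With 200 bp (0.939) and in either replicate alone it did not. Of the 18 peaks with the extended site, 10 had their summit downstream of the start and 8 upstream, 5 had it in a 5′ UTR and 9 in an intron. At Glys the middle of the site lay 157 bp downstream of the nearest start, at Hex-A 86 bp and at Eno 407 bp, while at UGP it lay 466 bp upstream. The 18 also included Pfk, Rpe, Kank, CG8745, fbl, CG12016, CG10512, Agpat4, CG6428 and Chchd3, and their pooled signals ran from 74.2 to 1046, with a median of 144.

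Few peaks combined these elements. Any of the ERR core, DREF, M1BP and GAF lay in 268 of the 1148 windows (23.3%). DREF and M1BP occurred together in 8, the ERR core with GAF in 4, with DREF in 2 and with M1BP in 2, and M1BP with GAF in 0. The remaining windows held no exact match to any of the 4.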

How the data were processed

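ChIP-seq region lists of 2 replicates were used as the authors deposited them, on dm6. The authors' deposited signal is the peak caller's score of a region. The deposited −log10 q was 3.89 for all optimal peaks, so peaks were ranked by signal. Per the notes deposited with the files, each replicate list, the pooled list (30000 regions each) and the optimal set chosen by irreproducible discovery rate were called with a control alignment; the names of aligner and caller were not given in the sources used. The optimal set equalled the 2892 highest regions of the pooled list. Depth is unknown, and intervals (95% Wilson) cover counting error only. Lists on the other build were not used here.

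Summits were compared with starts of Ensembl release 115 (BDGP6 6.54), and sequence was read from NCBI's Release 6 assembly, on whose chromosome arms all dm6 regions fit. Regions counted as shared between lists when they overlapped by at least 1 bp. Replicate signals given for single peaks are those of the overlapping region with the nearest summit, at any distance. Replicate ratios and paired peaks needed that summit within 100 bp. Of the 1148 peaks, 10 lie in regions listed with more than 1 optimal summit, and 66 overlap another of them. Windows for motifs reached 100 bp to each side of the summit. Tests were Fisher's exact tests, two-sided, at a threshold of 0.05, in Python 3.11.15 with SciPy 1.17.1, pandas 2.3.3 and NumPy 2.4.6, and the code was tested on simulated data. The peak class, gene lists and motifs were chosen with earlier results of these data known. Symbols in the lists without a unique gene model were dropped.

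Genes were named if they had 1 of the 20 highest peaks, 1 of the 10 highest with AAGGTCA, 1 of the 5 highest with DREF, M1BP or GAF, the 3 highest peaks of a list, 3 or more peaks, a peak nearest the 500 bp limit, an extreme replicate ratio, or a peak missing from a replicate list. Some genes that meet this rule are not reported here. Other genes named, including carriers of the extended ERR site and those whose sequence is printed, were chosen after their values were seen. The alternatives were other distances, windows and overlaps, starts of all annotated genes, the higher-signal 50% of peaks and each replicate alone; 1 summit per region and 1 mismatch in the ERR site were added after seeing the data.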

Additional observations from a re-analysis of the deposited data

How the results depend on the processing

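Calls in the class comparisons are at the unadjusted p, at which the reported 0.802 against shared promoters passed. Of 86 alternative values for the class comparisons, 63 did not change call or direction, 3 fell short of the threshold, 3 newly passed it, 11 shifted and 6 changed sign. Single motifs gave 213 values, and in the same order the numbers were 171, 20, 17, 0 and 5. No paired analysis was possible because the 2 replicates form a single group. The causes were not tested. With a distance of 200 bp, the share of single-gene peaks was 36.3%, the odds ratios for lying above the optimal median were 0.527 against shared promoters and 0.758 against peaks away from starts, and those for recovery in both replicates were 0.692 against shared promoters and 0.756 against peaks away from starts, all 4 past the threshold. With 1000 bp, the ratios for the optimal median were 0.979 against shared promoters and 1.11 against peaks away from starts, and with starts of all annotated genes 0.872 and 1.03. Without each replicate they ran from 0.801 to 0.939 and from 1.01 to 1.07. In the higher-signal 50% of peaks, recovery gave 2.36 against shared promoters, and 25.2% of summits were downstream; with the highest 1000 regions of each list, recovery gave 1.04 against peaks away from starts. Without each replicate the downstream share ran from 31.3% to 33.4%. The number of motifs past the threshold between higher and lower signal, 1 as reported, was 0 at 200 bp, in the higher-signal 50% of peaks and in 501 bp windows, and 1 to 3 without each replicate. Between upstream and downstream summits, 3 as reported, it was 5 at 1000 bp and 1 in 501 bp windows; against peaks away from starts, also 3, it was 4 to 7 without each replicate and 6 with 1 mismatch in the ERR site. GAF reversed to 0.991 against peaks away from starts at 200 bp, and between higher and lower signal to 1.19 in the higher-signal 50%, 0.777 to 1.02 without each replicate and 1.32 in 501 bp windows; M1BP between upstream and downstream summits reversed to 0.929 in 501 bp windows. None of these was past the threshold as reported. In the top regions of replicate 3 alone no shared-promoter window held the extended ERR site, so no odds ratio was formed. The lists give no depth, so which low peaks could have been missed is unknown.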
